A study of Mus musculus with 22 samples.

Results

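Macrophages and monocytes that had both been loaded with oxidised low-density lipoprotein (ox-LDL) were compared across all genes. The members were the 6 libraries of ox-LDL macrophages, titled G to L, and the 5 libraries of ox-LDL monocytes, titled 7 to 11, which are 11 of the 22 libraries in the series. They were chosen by their titles alone. The other 11 libraries, 5 of vehicle macrophages and 6 of vehicle monocytes, were used only to set the same cell-type contrast beside it without ox-LDL. All cells were wild type and came from spleens of male mice, C57BL/6 per the series description. The monocytes were primary splenic monocytes that received no differentiating agent and then ox-LDL at 50 µg/mL for 24 hours. The macrophages had been derived from such monocytes with phorbol myristate acetate (PMA, an activator of protein kinase C) at 200 ng/mL over 5 days before the same ox-LDL treatment. PMA, differentiation and days in culture therefore cannot be told apart in this comparison. Sequencing used polyadenylated RNA and a low-input SMARTer kit. Nothing in the labels ties a library to its own mouse or culture, so each p-value reflects only how much these libraries varied, which may be technical.

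A foam cell is a phagocyte that has taken up more lipoprotein cholesterol than it exports. Scavenger receptors bind modified lipoprotein at the surface, lysosomal acid lipase frees the cholesterol, acyltransferases re-esterify it for storage in droplets, and ABC transporters export it to apolipoproteins and high-density lipoprotein. Cholesterol in the endoplasmic reticulum holds SREBP2 inactive and so lowers sterol synthesis, while oxysterols activate the liver X receptors, which raise export genes. Macrophages do this in the arterial wall, and lipid-laden monocytes are also found in blood and spleen under hypercholesterolaemia.

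Counts totalled 38870065 to 48791656 in the monocyte libraries and 40709972 to 49588140 in the macrophage libraries. Levels are given as CPM, counts scaled by library size with TMM factors, and levels of different genes are compared only as the authors' deposited TPM, which is per length. A gene is said to be called when its adjusted p is under 0.05 (edgeR quasi-likelihood test, 2-sided, Benjamini-Hochberg over all genes tested), and every adjusted p below is from that test unless another is named.

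The labelled cell types were checked against their defining genes before any result. Summed over 22 monocyte markers, the deposited TPM of the monocyte libraries was 3434 ± 1674 (SD, n = 5), while 16 markers of mature, migratory dendritic cells summed to 28632 ± 7396. Ccr7, the receptor that guides mature dendritic cells to lymph nodes, stood at 7648, 7180, 7900, 5128 and 6081 CPM in monocyte libraries 7 to 11. The classical monocyte gene Ly6c2 stood at 19.5, 30.6, 19.8, 146 and 222 CPM in the same libraries, and Ccr2, the chemokine receptor that lets monocytes leave bone marrow, at 7.93, 11.6, 14, 19 and 21.6 CPM. Genes of mature dendritic cells were thus at high levels in all 5 libraries labelled monocytes, with monocyte markers below them per length. Markers of conventional and plasmacytoid dendritic cells were lower still, at 474 ± 50.7 and 495 ± 194 TPM, while neutrophil and erythroid markers summed to 52577 ± 49425 and 31563 ± 19515 TPM. Erythroid markers were 848 CPM in library 7 and 7815 to 14594 CPM in libraries 8 to 11, against 124 to 191 CPM in macrophages. Neutrophil markers summed to 5672, 6183 and 6714 CPM in monocyte libraries 7 to 9 and to 34254 and 48114 CPM in libraries 10 and 11, so these last libraries stood apart from the rest of their group. The monocyte list holds Chil3 and Cd177, which averaged 1277 and 658 TPM of its 3434 and rose with neutrophil markers. They averaged 312 and 264 CPM in libraries 7 to 9 and 1571 and 1421 CPM in 10 and 11. The neutrophil part of the monocyte sum was not tested. Of the variance among the 5 monocyte libraries, 55.4% lay on a component that set 10 and 11 against 7 to 9. The libraries labelled macrophages carried macrophage markers at 66839 to 86758 summed CPM against 18104 to 22609 in monocytes. Each result below therefore compares macrophages with cultures labelled monocytes that also hold RNA typical of mature dendritic cells, neutrophils, B cells and red cells. In bulk RNA, fewer cells of a type and less RNA per cell cannot be told apart, and the part of these other cells in the results was not tested.

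**Figure D1:**
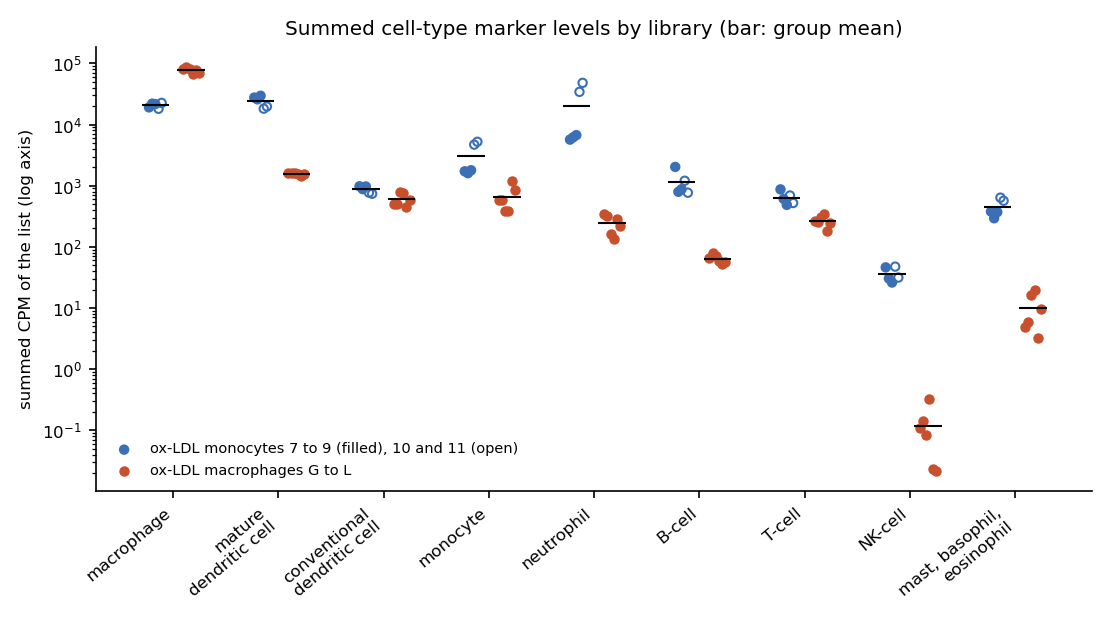
Summed CPM of 9 cell-type marker lists (log axis) in each ox-LDL library, with monocyte libraries in blue (7 to 9 filled, 10 and 11 open), macrophage libraries in red and group means as bars. Neutrophil markers were 34254 and 48114 CPM in libraries 10 and 11 and at most 342 CPM in any macrophage library, and macrophage markers were higher in all 6 macrophage libraries.

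The macrophage libraries differed from the monocyte libraries in most of the transcriptome. Of 15825 genes tested, 10344 were called (65.4%), of which 4799 were higher in macrophages (30.3% of genes tested) and 5545 lower (35.0%). The groups did not overlap for 7811 genes (49.4%). The median log2 fold change over all genes tested was -0.07, so the shares near 30.3% and 35.0% are the background against which each gene list is read. Differences were larger on the lower side: 1455 genes were called at least 8-fold lower and 256 at least 8-fold higher. Against a 2-fold change rather than no change, 1572 genes were past the threshold as higher and 2608 as lower. When libraries 10 and 11 were left out, 9561 of the 10344 calls (92.4%) were made again in the same direction. Among genes called lower, 247 were more than 2-fold higher in both libraries 10 and 11 than in any of 7 to 9.

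**Figure D2:**
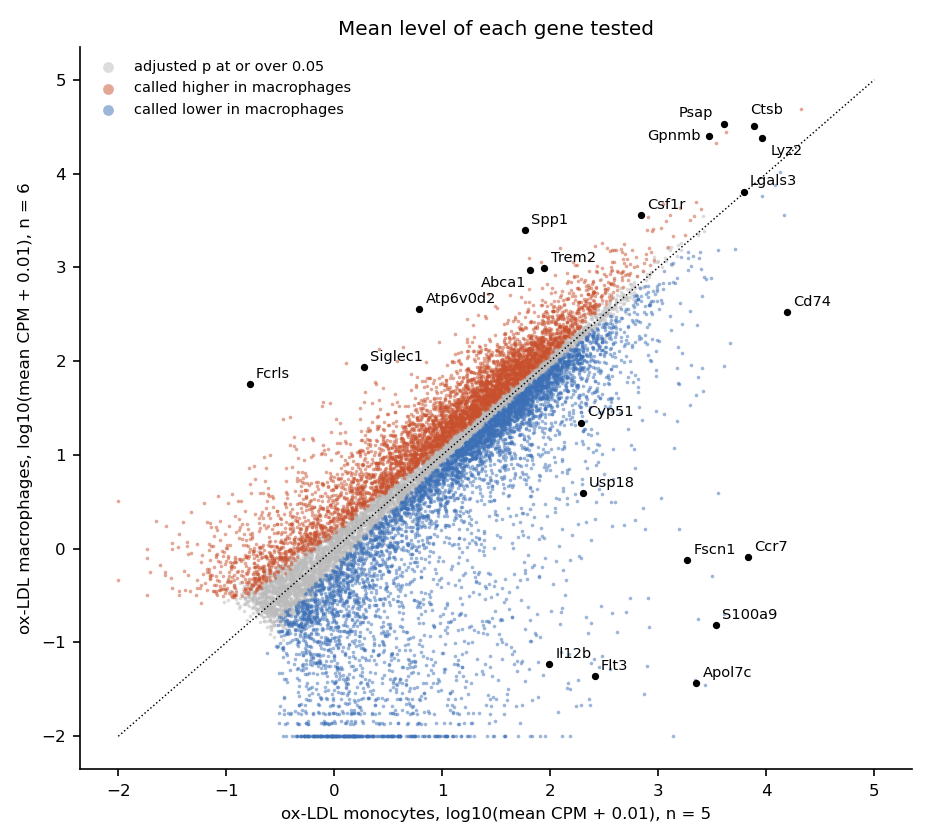
Mean CPM of each of the 15825 genes tested in ox-LDL monocytes (x axis, n = 5) and ox-LDL macrophages (y axis, n = 6), both as log10(mean CPM + 0.01), with genes called higher in macrophages in red, called lower in blue and the rest in grey. Points at the bottom edge are genes with no count in the macrophage libraries, and the spread below the line of equal levels is wider than above it.

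Genes of the lipid-laden macrophage programme were mostly higher in the macrophages, with ox-LDL and with vehicle. Of 20 genes known from lipid-associated macrophages of plaques, fat and liver, 14 were called higher and 1 lower, with a median log2 fold change of 1.70 against -0.07 for all genes. Between the vehicle groups 15 of the 20 were called higher, with a median of 2.20 against -0.09 for all genes. Spp1, which encodes osteopontin (GRCm38 chr5:104435118-104441050), stood at 21.9, 25.6, 32.1, 80.7 and 131 CPM in monocyte libraries 7 to 11. Its level in the macrophage libraries was 2017 at the lowest, 2280 at the median and 3290 at the highest. Every macrophage library was above every monocyte library, and Spp1 was higher by 5.40 ± 0.51 on the log2 scale (SE; adjusted p = 7.79e-07). Trem2, the lipid receptor that drives this programme in mice (chr17:48346401-48354147), stood at 49.7, 84.9, 70.0, 95.1 and 143 CPM in monocytes and at 857, 994 and 1115 CPM at the lowest, median and highest macrophage library. The groups did not overlap, and the log2 fold change was 3.44 ± 0.23 (adjusted p = 3.63e-08). Gpnmb, a lysosomal glycoprotein of lipid-stressed phagocytes, rose from a mean of 2978 ± 1409 to 25115 ± 3045 CPM. Mmp12, macrophage elastase, was 2.7 ± 0.33 higher (adjusted p = 7.58e-06), with macrophage libraries spread from 803 to 2929 CPM. The same contrast with vehicle was 6.15 ± 0.41 for Spp1, 3.98 ± 0.22 for Trem2, 3.79 ± 0.19 for Gpnmb and 3.91 ± 0.25 for Mmp12, and none of the 4 differences between the contrasts passed the interaction test (adjusted p 0.442 to 0.851).

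Other genes used to recognise foam cells were not called. Lgals3, the galectin often used to stain plaque macrophages, stood at 5009, 6865, 7314, 4838 and 6889 CPM in monocytes and between 4376 and 8048 CPM in macrophages. Its groups overlapped, and the log2 fold change was 0.03 ± 0.17 (adjusted p = 0.90). Cd63, a tetraspanin of late endosomes, had a log2 fold change of -0.11 ± 0.14 (adjusted p = 0.515). Plin2, the coat protein of lipid droplets, stood at 853, 1304, 1626, 960 and 1258 CPM in monocytes and at 1314, 1583 and 1879 CPM at the lowest, median and highest macrophage library. The Plin2 ranges overlapped and the difference of 0.37 ± 0.16 missed the threshold (adjusted p = 0.0567), though it passed under 4 alternative settings, with a limma voom adjusted p of 0.0347.

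**Figure D3:**
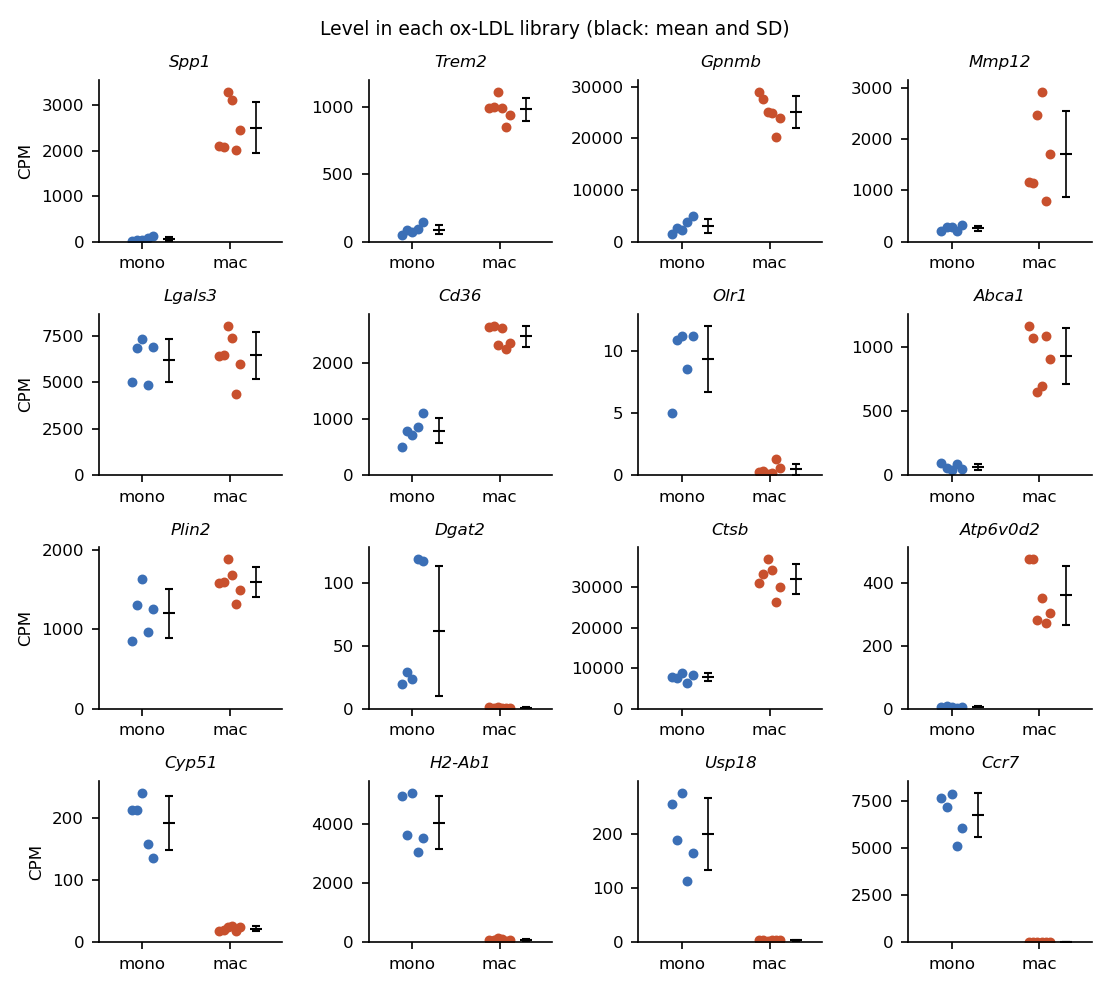
CPM of 16 genes in each ox-LDL library, monocytes (7 to 11, left to right) in blue and macrophages (G to L) in red, with the mean and SD of each group in black and each axis starting at 0. Spp1, Trem2, Gpnmb, Mmp12, Cd36, Abca1, Ctsb and Atp6v0d2 did not overlap and were higher in macrophages, Lgals3 and Plin2 overlapped, and Olr1, Dgat2, Cyp51, H2-Ab1, Usp18 and Ccr7 were lower.

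Receptors for modified lipoprotein differed in both directions. Of 17 tested scavenger and lipoprotein receptors, 9 were called higher in macrophages and 5 lower, with a median log2 fold change of 0.93. Cd36, the class B receptor that binds oxidised phospholipid, stood at 495, 795, 715, 861 and 1099 CPM in monocytes and at 2254, 2487 and 2664 CPM at the lowest, median and highest macrophage library. Cd36 did not overlap between groups and was 1.61 ± 0.17 higher (adjusted p = 2.46e-06). Larger differences were seen for Stab1, an endocytic receptor of tissue macrophages (3.77 ± 0.34, adjusted p = 5.05e-07), and for Scarf1, a receptor for modified lipoprotein and apoptotic cells (4.18 ± 0.34, adjusted p = 1.78e-07). Lrp1, a receptor for remnants and many proteases, was 2.55 ± 0.25 higher. Msr1, scavenger receptor A, differed by 0.66 ± 0.18 (adjusted p = 0.00654) with overlapping groups. Olr1, the lectin-like ox-LDL receptor LOX-1, ran the other way, at 5.02, 10.9, 11.2, 8.55 and 11.2 CPM in monocytes and at no more than 1.30 CPM in macrophages. The groups did not overlap, and its log2 fold change was -4.38 ± 0.51 (adjusted p = 5.32e-06). Cxcl16, a membrane chemokine that also binds ox-LDL, was lower as well, from a mean of 1662 ± 422 to 249 ± 65.4 CPM.

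Genes that handle cholesterol after uptake were mostly higher in macrophages. Of 12 genes of intracellular transport and esterification, 8 were called higher and 3 lower, and of 17 liver X receptor targets and efflux genes, 11 were called higher and 3 lower, with median log2 fold changes of 0.76 and 0.83. Abca1, the cholesterol exporter to apolipoprotein (chr4:53030787-53159895), stood at 93.5, 55.8, 43.0, 87.5 and 47.8 CPM in monocytes. In macrophages its lowest, median and highest levels were 649, 991 and 1167 CPM. The groups were far apart, with a log2 fold change of 3.79 ± 0.26 (adjusted p = 4.63e-08). Abcg1, which exports to high-density lipoprotein, was 1.6 ± 0.12 higher, and Pltp, the phospholipid transfer protein, 2.27 ± 0.22 higher. Nceh1, which hydrolyses cholesteryl ester, Soat1, which makes it, and Npc1, which moves cholesterol out of lysosomes, were higher by 1.93 ± 0.15, 1.23 ± 0.16 and 1.78 ± 0.14. Nr1h3, which encodes liver X receptor alpha itself, was lower by -0.77 ± 0.24 (adjusted p = 0.0112) with overlapping groups. Scd1, a desaturase that liver X receptors raise in liver, was also lower, at -3.19 ± 0.39 (adjusted p = 9.15e-06).

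Storage and use of fatty acids gave a mixed picture. Of 26 tested genes of droplets and fatty acid use, 12 were called higher, 3 lower and 11 were not called, with a median of 0.41. Fabp4, a fatty-acid carrier, was 2.29 ± 0.28 higher (adjusted p = 9.13e-06) and Cpt1a, the gate of mitochondrial fatty-acid oxidation, 1.52 ± 0.13 higher. Fabp5 and lipoprotein lipase (Lpl) were higher by 1.02 ± 0.23 and 0.91 ± 0.19. Pparg, the nuclear receptor of lipid uptake, was not called at 0.44 ± 0.19 (adjusted p = 0.0584), though it passed under 4 alternative settings. Dgat2, which makes triglyceride, stood at 20, 29.3, 23.6, 119 and 117 CPM in monocytes against 0.393 to 1.46 CPM in macrophages. Dgat2 was lower by a log2 fold change of -6.24 ± 0.61 (adjusted p = 1.04e-06), and it was highest in libraries 10 and 11, as were neutrophil markers, whose part in it was not tested.

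Lysosomal genes were mostly higher in the macrophages. Of 38 lysosomal enzymes and membrane proteins, 31 were called higher in macrophages and 3 lower, with a median log2 fold change of 1.36. Psap, the precursor of the saposins that present sphingolipids to hydrolases, stood at 3761, 3308, 3183, 7333 and 2854 CPM in monocytes. It reached 26408, 32604 and 42024 CPM at the lowest, median and highest macrophage library, and the difference was 3.02 ± 0.27 (adjusted p = 4.52e-07). Ctsb, cathepsin B, went from a mean of 7790 ± 942 to 31875 ± 3706 CPM. Naglu and Galc, hydrolases of heparan sulphate and galactosylceramide, were higher by 2.80 ± 0.13 and 2.74 ± 0.14, and Lipa, the acid lipase that frees lipoprotein cholesterol, by 1.46 ± 0.14. The 3 lower genes were the osteoclast-associated Acp5 (-1.6 ± 0.17) and Ctsk (-1.41 ± 0.31) and the cathepsin gene Ctsh (-0.87 ± 0.14). The groups of Ctsz, another cathepsin, overlapped at -0.01 ± 0.15 (adjusted p = 0.944). The proton pump that acidifies the lysosome was less even: of 18 subunit genes 10 were called higher and 2 lower, with a median of 0.38. Atp6v0d2, a subunit of the membrane sector restricted to few cell types (chr4:19876841-19922605), stood at 5.58, 9.28, 6.57, 3.93 and 5.17 CPM in monocytes and at 270, 328 and 474 CPM at the lowest, median and highest macrophage library. Its groups did not overlap, and the log2 fold change was 5.85 ± 0.27 (adjusted p = 1.23e-09).

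Short stretches of lysosomal promoters are shown here because the CLEAR element, the site of the lysosomal regulators TFEB, TFE3 and MITF, has the palindrome TCACGTGA at its core. Within 250 bases upstream of RefSeq starts, read on both strands, the palindrome was found in 3 of 30 lysosomal genes with an entry and 1 of 12 proton pump genes, against 1.77% of all 10297 tested genes with an entry. Among lists mostly lower in macrophages, it was in 1 of 11 class II and 1 of 17 class I antigen-presentation genes. It was in 0 of 17 sterol and 0 of 25 interferon-stimulated genes. The shorter CACGTG, which the palindrome contains, was found in 9 of the 30 genes, against 9.76% of tested genes. In the same lower lists CACGTG was in 1 of 11, 3 of 17, 4 of 17 and 0 of 25 genes. Each stretch is written 5′ to 3′ on the strand of the gene, from RefSeq on GRCm38, with the palindrome in capitals. All 4 lie upstream of the RefSeq start but inside the gene as the deposited tables place it.
Ctsd, chr7:142387909-142387936, minus strand: cgcccgcgtcTCACGTGAcccgttgagg
Ctsa, chr2:164833750-164833772, plus strand: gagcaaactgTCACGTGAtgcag
Mcoln1, chr8:3500463-3500490, plus strand: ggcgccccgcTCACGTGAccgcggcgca
Atp6v1a, chr16:44139374-44139401, minus strand: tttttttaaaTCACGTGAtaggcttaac
These 4 genes were picked for the palindrome, after their values were seen. Ctsd (cathepsin D), Ctsa (cathepsin A), Mcoln1 (the lysosomal calcium channel) and Atp6v1a (a catalytic pump subunit) were higher in macrophages by 2.61 ± 0.13, 1.47 ± 0.11, 0.92 ± 0.12 and 1.6 ± 0.13. Mitf, a factor of the family that binds this site, was itself higher, from 10.7 ± 3.94 to 62.6 ± 8.80 CPM (log2 fold change 2.51 ± 0.22, adjusted p = 3.58e-07). A match describes the letters of a promoter and does not show binding.

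**Figure D4:**
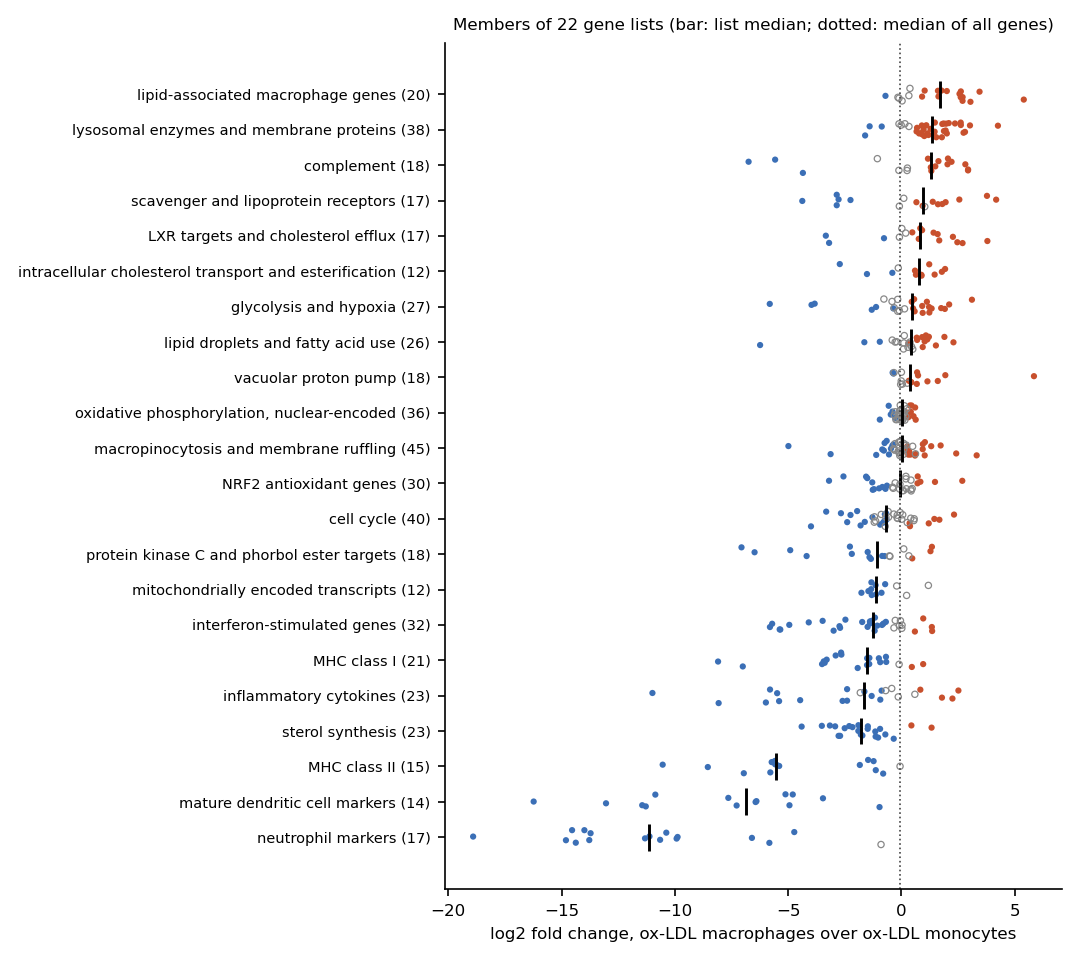
Log2 fold changes, macrophages over monocytes, of the tested members of 22 gene lists (number tested in brackets), red or blue where called and grey and open where not, with the list median as a black bar and the median of all genes tested, -0.07, as a dotted line. Lists run from neutrophil markers, median -11.12, to lipid-associated macrophage genes, median 1.70.

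Genes of sterol synthesis were lower in the macrophages. Of 23 genes, 21 were called lower and 2 higher, with a median log2 fold change of -1.79. Cyp51, lanosterol demethylase (chr5:4081145-4104746), stood at 213, 214, 241, 160 and 136 CPM in monocytes and at 17.9, 22.3 and 26.5 CPM at the lowest, median and highest macrophage library. The groups did not overlap, with a log2 fold change of -3.16 ± 0.17 (adjusted p = 4.27e-09). Idi1, isopentenyl diphosphate isomerase, was at 53.1, 52.8, 54.9, 36.8 and 41.4 CPM in monocytes and at most 3.87 CPM in macrophages (-4.41 ± 0.25). Fdft1 (squalene synthase) and Sqle (squalene epoxidase) were lower by -2.93 ± 0.32 and -2.77 ± 0.22. Srebf2, which encodes SREBP2 itself, was lower by -1.73 ± 0.14. The pair of exceptions was Dhcr7, which makes the final step to cholesterol and was 1.33 ± 0.14 higher, and Tm7sf2, a sterol reductase, at 0.44 ± 0.17 (adjusted p = 0.0356). Tm7sf2 lost its call under 11 alternative settings, among them without libraries 10 and 11 (0.18, adjusted p = 0.237).

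Sterol genes also made up 6 of the 11 genes whose cell-type contrast differed between ox-LDL and vehicle. Vehicle macrophages against vehicle monocytes gave 10369 calls among 16288 genes (63.7%). The difference between the contrasts was tested as an interaction over all 22 libraries, and only 11 of 17466 genes were called (0.0630%), with 1261 at an unadjusted p under 0.05. All 6 of the sterol genes among them were more negative with ox-LDL. Insig1, the anchor that retains SREBP2 in the endoplasmic reticulum, had means of 47.7 ± 9.65 CPM in vehicle monocytes and 40.7 ± 8.23 CPM in ox-LDL monocytes, and of 66.8 ± 2.74 CPM in vehicle macrophages and 25.4 ± 1.59 CPM in ox-LDL macrophages. Its contrast was 0.46 ± 0.14 with vehicle and -0.71 ± 0.13 with ox-LDL, a difference of -1.16 ± 0.19 (adjusted p = 0.019). Idi1 went from 53.1 to 47.8 CPM between vehicle and ox-LDL monocytes and from 6.99 to 2.30 CPM between vehicle and ox-LDL macrophages, a difference of -1.45 ± 0.26 (adjusted p = 0.0354). Msmo1 (-1.19 ± 0.21), Sqle (-1.40 ± 0.27) and Cyp51 (-1.08 ± 0.20) were also more negative with ox-LDL, with adjusted p of 0.0354, 0.0444 and 0.0354. The last was Stard4, a sterol carrier, at -0.95 ± 0.18 (adjusted p = 0.0444), named after its values were seen. Of the 23 sterol genes, 22 had a lower contrast with ox-LDL than with vehicle, and the list's median was -1.79 with ox-LDL and -0.97 with vehicle. The median difference between the contrasts was -0.756 for the sterol list and -0.006 for all genes. A shift in this direction was not limited to sterol genes: it was -0.472 for lipid-associated macrophage genes, of which 0 were called. The count of calls was sensitive to single libraries, from 1 (without monocyte library 8 or 9, or vehicle macrophage library A) to 44 (without monocyte library 10). Insig1 was called in 19 of 22 fits that left out 1 library, Msmo1 in 11, Idi1 and Cyp51 in 7, Sqle in 4 and Stard4 in 3.

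**Figure D5:**
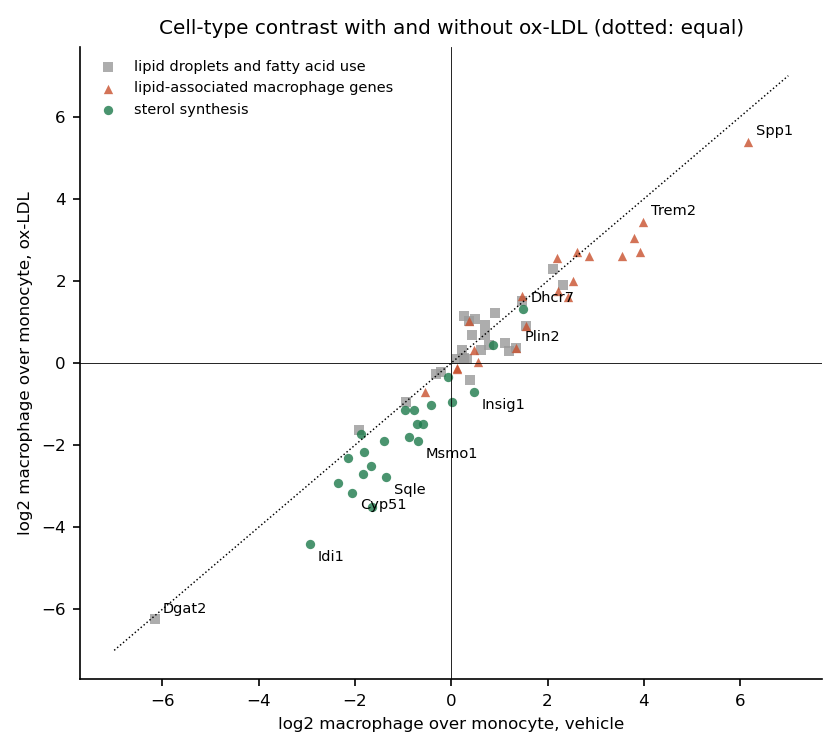
Log2 fold change of macrophages over monocytes with vehicle (x axis) and with ox-LDL (y axis) for 3 gene lists, with equal values on the dotted line. Sterol genes (green circles) lie below the line for 22 of 23 genes, and Insig1 changes sign, from 0.46 to -0.71. The median difference between the contrasts was -0.756 for sterol genes and -0.472 for lipid-associated macrophage genes.

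Outside the sterol list, the difference was called for 4 further genes whose names are given here. Rn7sk, a small nuclear RNA of transcription elongation, was more negative with ox-LDL by -2.22 ± 0.36 (adjusted p = 0.019). So were the predicted gene Gm24447 (-2.12 ± 0.39, adjusted p = 0.0366) and the histone gene Hist1h4c (-1.95 ± 0.35, adjusted p = 0.0354). Hist1h4c, named after its values were seen, was near the floor, with group means from 0.244 to 2.08 CPM. Zfp217, a zinc-finger gene, was more positive at 1.21 ± 0.22 (adjusted p = 0.0354). It was lower in macrophages in both contrasts, by -1.77 ± 0.17 with vehicle and -0.57 ± 0.15 with ox-LDL. Mean Zfp217 was 21.05 CPM in vehicle and 9.16 CPM in ox-LDL monocytes, and 6.26 and 6.31 CPM in vehicle and ox-LDL macrophages. Of 22 fits that left out 1 library, Rn7sk was called in 19, Gm24447 and Hist1h4c in 6 each and Zfp217 in 5. Mean levels of Gm24447 and Rn7sk ranked the 4 groups alike. Both were highest in ox-LDL monocytes, at 17.04 and 65.28 CPM, and lowest in ox-LDL macrophages. Whether Gm24447 and Rn7sk are separate signals was not tested. The libraries were made from polyadenylated RNA, and how evenly they catch Rn7sk, Gm24447 and Hist1h4c was not tested either. Rn7sk has near-identical copies, and reads shared between them could not be assigned from the tables.

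Sterol promoters are shown because the factor NF-Y works beside SREBP2 at the CCAAT box, ATTGG when read inverted. ATTGG on either strand lay within 250 bases upstream of a start in 16 of 17 sterol genes with an entry (94.1%), against 40.5% of tested genes. The sterol element TCACNCCAC was found in 1 of the 17, against 1.22% of tested genes. Capitals mark the CCAAT box. The stretches of Idi1 and Cyp51 lie inside the gene as the deposited tables place it.
Insig1, chr5:28071178-28071218, plus strand: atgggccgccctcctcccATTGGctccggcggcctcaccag
Idi1, chr13:8885582-8885605, plus strand: ccaaggtgccATTGGctggcgacc
Cyp51, chr5:4104712-4104736, minus strand: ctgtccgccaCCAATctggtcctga
Hmgcs1, chr13:119690288-119690328, plus strand: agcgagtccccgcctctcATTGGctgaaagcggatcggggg
Hmgcs1, a synthase early in the pathway, was added for its promoter after its values were seen, and was lower by -1.90 ± 0.13 (adjusted p = 4.86e-08).

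Antigen presentation was far lower in the macrophages. Of 15 class II genes, 14 were called lower and 0 higher, with a median log2 fold change of -5.53. H2-Ab1, the class II beta chain (chr17:34257689-34269419), stood at 4927, 3615, 5037, 3054 and 3518 CPM in monocytes and at 57.5, 77.3 and 141 CPM at the lowest, median and highest macrophage library. The groups did not overlap (-5.53 ± 0.28, adjusted p = 2.14e-09). Cd74, the invariant chain, was among the 5 highest genes of the monocyte libraries by deposited TPM, at 25484, and stood at 556 in macrophages. H2-Eb2 and H2-Oa were lower by -10.54 ± 0.24 and -8.54 ± 0.16. H2-Eb2 averaged 0.0516 CPM in macrophages, so its SE may be smaller than counting error. Of 21 class I genes, 18 were called lower and 2 higher, with a median of -1.52, including H2-D1 at -0.67 ± 0.15 and H2-Q6 at -8.09 ± 0.29. Class I genes such as the H2-Q genes are near-identical, so reads could be split among them. Beside these values, mature dendritic cell markers summed to 18192 to 29580 CPM in monocytes and 1466 to 1639 CPM in macrophages, and B-cell markers to 769 to 2028 and 52.4 to 78.9 CPM, and their part in the result was not tested.

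Class II promoters are shown because their conserved module, on which the coactivator CIITA acts, holds a CCAAT box bound by NF-Y. ATTGG was found in 10 of 11 class II genes with an entry (90.9%). The match is in capitals, and whether it is the box of that module was not tested. The 3 genes shown were picked for the match after their values were seen.
H2-Aa, chr17:34287849-34287889, minus strand: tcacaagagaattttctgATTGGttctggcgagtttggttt
H2-Eb2, chr17:34325557-34325597, plus strand: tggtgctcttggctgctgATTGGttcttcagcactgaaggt
H2-Ob, chr17:34238830-34238870, plus strand: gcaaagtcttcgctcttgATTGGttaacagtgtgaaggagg
The log2 fold changes of these genes were -5.79 ± 0.30, -10.54 ± 0.24 and -6.96 ± 0.37.

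Interferon-stimulated genes were lower in 22 of 32 tested members and higher in 4, with a median of -1.25. Usp18, which restrains interferon receptor signalling, stood at 254, 188, 275, 113 and 165 CPM in monocytes and at no more than 4.50 CPM in macrophages (-5.71 ± 0.26, adjusted p = 9.32e-10). Gbp2, Mx1 and Oasl1, a guanylate-binding protein and antiviral effectors, were lower by -5.37 ± 0.24, -5.80 ± 0.57 and -5.35 ± 0.33. Bst2 (tetherin) was 0.96 ± 0.12 higher and Oas3 1.35 ± 0.41 higher, the latter with overlapping groups. The interferon-stimulated response element, searched as a pair of GAAA words 2 bases apart on both strands, was found in 13 of 25 members with an entry (52.0%), against 3.47% of tested genes, and 3 members picked for it after their values were seen are shown with the matches in capitals.
Ifit1, chr19:34640786-34640831, plus strand: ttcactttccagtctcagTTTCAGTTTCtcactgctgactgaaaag
Isg15, chr4:156200857-156200902, minus strand: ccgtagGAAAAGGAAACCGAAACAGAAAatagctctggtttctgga
Rsad2, chr12:26456545-26456590, minus strand: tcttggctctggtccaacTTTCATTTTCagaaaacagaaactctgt
Ifit1, Isg15 and Rsad2 were lower by -3.48 ± 0.35, -2.74 ± 0.20 and -2.71 ± 0.19. In Isg15 the matches overlap each other.

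Cytokine and chemokine genes were mostly lower. Of 23 cytokine genes, 14 were called lower and 4 higher, and of 17 chemokine ligands, 11 lower and 3 higher. With a stricter filter of 1 CPM in 5 libraries, 9 cytokine genes were called lower. Il12b, the p40 chain made by activated dendritic cells, stood at 177, 77.5, 115, 66.2 and 55.3 CPM in monocytes and at 0 to 0.139 CPM in macrophages (-10.99 ± 0.55, adjusted p = 2.06e-09). Il1b, the inflammasome substrate, was at 64.0, 101, 71.2, 98.8 and 129 CPM in monocytes and at most 4.27 CPM in macrophages (-5.40 ± 0.47). Tnf overlapped between the groups, at 7.82 ± 3.70 and 7.25 ± 3.95 CPM (adjusted p = 0.779). Ccl5 and Ccl22, ligands for T cells, were lower by -8.89 ± 0.38 and -7.27 ± 0.72. Genes called higher included the growth factors Vegfa (2.25 ± 0.24) and Tgfb1 (1.79 ± 0.18) and the chemokine Cxcl14 (3.81 ± 0.19). Il12b and Ccl22 are also genes of mature dendritic cells, whose marker sums are given above.

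The 15 largest called differences upward, among named genes of at least 20 CPM with groups that did not overlap, held several cell-surface and matrix genes. Fcrls, a scavenger-like Fc receptor homologue of mouse macrophages and microglia, was at 0 to 0.30 CPM in monocytes and at 11.5, 63.1 and 108 CPM at the lowest, median and highest macrophage library (8.46 ± 0.84, adjusted p = 1.31e-06). Siglec1, sialoadhesin, was at 2.20, 2.1, 1.25, 1.6 and 2.19 CPM in monocytes and at 78.0 to 96.4 CPM in macrophages (5.49 ± 0.17). The neuropeptide gene Npy reached 17.9 to 54.9 CPM in macrophages, from no more than 1.42 CPM in monocytes (5.40 ± 0.55). Plxna2, a semaphorin receptor, Ltbp3, which binds latent TGF-beta, and Igfbp4, which binds insulin-like growth factors, were higher by 5.27 ± 0.17, 5.69 ± 0.20 and 5.03 ± 0.28. The others were Apbb2, Mamdc2, Atp6v0d2, Speg, Spp1, C77080, Mrgpre, Reps2 and Cd276, at 4.55 to 6.17. A single gene, Nes (nestin, named after its values were seen), had no count in any monocyte library and at least 1 CPM in every macrophage library.

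The largest differences downward included genes with no count in the macrophages. Of 106 genes with at least 1 CPM in every monocyte library and no count in any macrophage library, 32 were immunoglobulin or T-cell receptor segments (30.2%), which made up 0.739% of all genes tested. Retnlg, a neutrophil granule gene, stood at 364, 400, 407, 2276 and 3404 CPM in monocytes and had no count in macrophages. With a floor of 3 counts over the group it was at least 118745-fold lower, at least 73921-fold without library 11 and at least 33567-fold without libraries 10 and 11. By the same floor Pglyrp1 was at least 13127-fold lower and the neutrophil gene Wfdc21 at least 6948-fold, or 8394 and 4115 without library 11 and 4174 and 1734 without libraries 10 and 11. Scin was at least 11059-fold lower, Ly6d at least 7781-fold and Alpk2 at least 4356-fold, each with a larger bound without libraries 10 and 11. Asprv1 had 3 counts in macrophages, and the ratio had a counting interval of 6926 to 98154. Apol7c, a gene of activated dendritic cells, was at 2315, 2685, 2537, 1843 and 1868 CPM in monocytes and at most 0.0470 CPM in macrophages (-16.23 ± 0.32). It had 7 counts over the macrophage libraries, so this SE may be smaller than counting error. Reads of Apol7c could also be shared with its paralogues. The neutrophil genes S100a9, Ngp, Camp and Ltf, at -13.78 to -14.54, were each at least 4-fold higher on average in libraries 10 and 11 than in 7 to 9.

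Markers of several leukocytes were lower as lists. All 14 tested mature dendritic cell markers were called lower (median -6.86), as were 16 of 17 neutrophil markers (-11.12), 17 of 18 B-cell markers (-8.89, or -8.11 with genes at 0 set to their bound), 9 of 9 NK-cell markers (-7.88) and 18 of 22 monocyte markers (-3.20). Without libraries 10 and 11 the neutrophil median was -9.21, again with 16 lower, and the monocyte marker median was -2.4, again with 18 lower. Summed neutrophil, mature dendritic, B-cell, T-cell, NK-cell and monocyte markers were each lower in all 6 macrophage libraries than in all 5 monocyte libraries (2-sided exact permutation test, p = 0.00433, the smallest that this design allows, adjusted p = 0.00588 over 19 summaries). Flt3 and Kit, growth-factor receptors of progenitors that dendritic cells and mast cells respectively keep, stood at 258 ± 62.1 and 252 ± 34.5 CPM in monocytes and at 0.0341 ± 0.0352 and 0.0563 ± 0.0873 CPM in macrophages. Zbtb46, a transcription factor of classical dendritic cells, went from 160 ± 34.5 to 1.4 ± 0.90 CPM. Flt3 and Zbtb46 are on the conventional dendritic cell list, which was less even. Of its 16 tested members 10 were called lower and 3 higher (median -2.03), with Cadm1 higher by 0.93 ± 0.33. The list summed to 739 to 979 CPM in monocytes and 444 to 784 CPM in macrophages (exact permutation test, adjusted p = 0.0274). Cd79a, a chain of the B-cell receptor, summed to 6 counts over the macrophage libraries.

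General macrophage markers were mostly higher. Of 21, 17 were called higher and 1 lower, with a median of 1.91. Markers of red pulp macrophages, the resident macrophages of spleen, ran otherwise: 1 of 12 was called higher and 5 lower, with a median of -0.15, and their summed level overlapped between the groups (exact permutation test, adjusted p = 0.145). Csf1r, the receptor for colony-stimulating factor 1, stood at 535, 683, 607, 760 and 880 CPM in monocytes and at 2420, 3949 and 4670 CPM at the lowest, median and highest macrophage library (2.35 ± 0.20, adjusted p = 2.88e-07). Adgre1, the F4/80 antigen, was at 227, 324, 282, 229 and 294 CPM in monocytes and at 846 to 1178 CPM in macrophages (1.91 ± 0.14). Mertk, the receptor for apoptotic cells, C1qb, a chain of complement C1q, and Mrc1, the mannose receptor, were higher by 2.45 ± 0.20, 2.21 ± 0.26 and 2.11 ± 0.21. Among lineage transcription factors 12 of 42 were called higher and 24 lower. Maf and Cebpa were higher by 2.52 ± 0.17 and 1.98 ± 0.24, while Spi1, which encodes PU.1, was lower by -0.77 ± 0.09 and Klf2 by -3.17 ± 0.20. Of 26 Toll-like receptors and partners, 10 were called higher and 10 lower, with a median of -0.09. Tlr8, Tlr7 and Tlr4 were higher by 3.02 ± 0.11, 2.55 ± 0.15 and 1.72 ± 0.10, and Tlr11 and Tlr1 were lower by -7.84 ± 0.62 and -2.07 ± 0.24.

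Macropinocytosis, the bulk uptake of fluid by ruffling membrane, was the subject named in the title of the series. Of 45 tested genes of macropinocytosis and ruffling, 15 were called higher in macrophages, 11 lower and 19 were not called, with a median of 0.01. The called shares, 15 and 11 of 45, were close to or under the shares over all genes. Pak1, the kinase that organises ruffles, stood at 26.4, 26.7, 27.7, 30.6 and 36.6 CPM in monocytes and at 26.4, 30.8 and 33.6 CPM at the lowest, median and highest macrophage library. The groups overlapped, with a log2 fold change of 0.01 ± 0.11 (adjusted p = 0.941). Swap70, an actin-binding exchange factor, was lower by -3.13 ± 0.22 (adjusted p = 5e-08), and Dock1, an activator of Rac, and the GTPase gene Rab34 were higher by 2.42 ± 0.16 and 3.32 ± 0.29. Of the phagocyte oxidase, Cybb (NOX2) was higher, from 238, 306, 334, 616 and 757 CPM in monocytes to 1206 to 1949 CPM in macrophages (1.77 ± 0.28, adjusted p = 8.85e-05). Its partners Cyba and Ncf4 were lower by -0.76 ± 0.15 and -1.37 ± 0.11. Among protein kinase C genes and phorbol ester targets 11 of 18 were lower and 3 higher: Prkcd was not called (0.10 ± 0.10, adjusted p = 0.394), nor was Prkca (-0.53 ± 0.33, adjusted p = 0.171), Prkch was 1.34 ± 0.13 higher, and the substrates Marcks and Marcksl1 were lower by -1.49 ± 0.14 and -4.19 ± 0.51. Prkcb differed by 0.48 ± 0.17 (adjusted p = 0.0221) and lost its call without monocyte library 7 (adjusted p = 0.0523) or 9 (adjusted p = 0.0692). Panx1, a channel for ATP, was at 0.33 ± 0.14 (adjusted p = 0.045) and lost its call under 13 alternative settings, while the ATP receptor gene P2rx7 was 2.62 ± 0.17 higher.

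Antioxidant genes did not move as a group. Of 30 targets of NRF2, the factor that oxidised lipid activates, 5 were called higher and 11 lower, with a median of -0.08. Nqo1, a quinone reductase, stood at 45.4, 42.3, 43.3, 54.3 and 76.8 CPM in monocytes and at 4.95 to 6.46 CPM in macrophages (-3.20 ± 0.16, adjusted p = 2.25e-09). Slc7a11, the cystine importer, Sqstm1, the autophagy receptor p62, and Hmox1, heme oxygenase, were lower by -2.56 ± 0.27, -1.27 ± 0.12 and -0.99 ± 0.14, whereas Cat, catalase, was 1.48 ± 0.11 higher. Without libraries 10 and 11 the counts turned to 12 higher and 9 lower. Ferritin chains went apart: Fth1 was 1.17 ± 0.20 higher and Ftl1 -0.41 ± 0.13, with overlapping groups for Ftl1, whose call was lost without the filter on low counts (adjusted p = 0.0614).

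Metabolic genes differed by arm. Of 27 glycolysis and hypoxia genes 14 were called higher and 6 lower. Hk2, hexokinase of the mitochondrial surface, was 1.91 ± 0.27 higher, while Slc2a3, a glucose transporter of neutrophils and neurons, was lower by -5.81 ± 0.50 and Pfkfb3, which sets fructose bisphosphate, by -3.83 ± 0.28. The 36 nuclear genes of oxidative phosphorylation had a median of 0.02, with 8 higher and 5 lower, or 6 higher and 8 lower without libraries 10 and 11. With total counts as the scaling, 5 were higher and 8 lower. Mitochondrially encoded transcripts were lower in 9 of 12 (median -1.13), and mitochondrial reads made up 0.228% to 0.329% of counts in monocytes and 0.0955% to 0.143% in macrophages. Polyadenylated libraries catch these transcripts only in part.

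Some genes with high CPM were at like levels in both cell types. The 95% interval of the log2 fold change lay within 0.5 of 0 for 1920 genes, 12.1% of those tested. The 8 of these with the highest CPM were Lgals3, Lcp1, Pkm, Ctsz, Msn, Aldoa, Cd63 and Lgmn, which serve carbohydrate binding, actin bundling, glycolysis and lysosomal proteolysis. Lcp1 (L-plastin) stood at 2668 ± 542 and 2414 ± 188 CPM, and Pkm, pyruvate kinase, at 2335 ± 650 and 2234 ± 165 CPM. Without libraries 10 and 11, Aldoa was called at 0.31 (adjusted p = 0.0157) and Lgmn at -0.39 (adjusted p = 0.00535). By deposited TPM, genes among the 5 highest in macrophages were Lyz2 at 50713 and Fth1 at 38975, and in monocytes Tmsb4x at 28766, Ftl1 at 26929 and Cd74 at 25484.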

How the data were processed

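RNA of 22 libraries was read from gene tables, 1 per library. Per the submitters' processing notes, the authors used STAR 2.7.9a, featureCounts 2.0.3 of Subread and the build GRCm38. Deposited counts are whole numbers of reads for 55487 genes, without normalization. The deposited CPM equal those counts scaled to the library total. Deposited FPKM equal CPM divided by gene length in kilobases. Deposited TPM rescale FPKM to the same sum in every library. The sources used here do not give the strand setting or how reads with several matches were counted.

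Counts of the 11 ox-LDL libraries were fitted with edgeR 4.0.16 in R 4.3.3, using TMM factors, filterByExpr and the quasi-likelihood test. The 11 vehicle libraries were fitted likewise, and all 22 together for the difference. Each SE is the log2 fold change divided by the root of F. Where a group had few counts, such an SE can be smaller than counting error alone. Asprv1, with 3 counts in macrophages, had an SE of 0.304 and a counting interval of 6926 to 98154 for the ratio. CPM in the text use TMM factors over 22 libraries, with ± as SD for levels and SE for log2 fold changes. Marker sums were compared by exact permutation over libraries. The fits were run on simulated data with few changed genes, balanced in direction, and the same dispersion throughout. Most genes tested here were called, and the biological coefficient of variation was 0.306 in ox-LDL monocytes and 0.178 in ox-LDL macrophages. The simulation does not cover those features. Alternatives were DESeq2 1.42.0, limma 3.58.1, other scalings and filters, a test against a 2-fold change, and leaving out libraries. Floors and counting intervals cover counting error only, since reads carry no molecular identifiers.

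Gene names and positions are the files' own, and 99.4% of positions equal those of GENCODE M21. Promoter windows are RefSeq's for GRCm38.p6, and 7 motifs were searched. Genes were grouped in 54 lists, 38 of biology and 16 of cell-type markers. The text names the 15 highest and 15 lowest called genes with at least 20 CPM and no overlap, genes of each list with at least 5 CPM by change or abundance, preset foam-cell genes, the 8 most abundant alike genes, those whose contrast differed most, and the 5 highest by TPM. Some of them are not reported here. The comparison, the lists and the motifs were chosen with earlier results of these data known.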

Additional observations from a re-analysis of the deposited data

Results flagged for a closer look

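In 398 sets of values, each a named gene or marker sum within 1 cell type, 17 held a library far from the others of its group, 8 in macrophages and 9 in monocytes. By chance about 1 set in 20 would be marked, so 17 of 398 is no more than chance would mark. The libraries below are described and not read as findings.

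Monocyte library 7 was high in B-cell genes. Cd79a, a chain of the B-cell receptor, stood at 256.6 CPM there and at 105.7 to 137.9 CPM in the other monocyte libraries, and Ly6d, a gene of B-lineage cells that the plasmacytoid list also holds, at 155.7 CPM against 65.82 to 80.91 CPM. Summed plasmacytoid dendritic cell markers were 326.5 CPM in that library and 192.8 to 216.3 CPM in the rest.

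Among macrophage libraries, I was low for Usp18 (2.29 CPM, the others 3.747 to 4.503), for the Toll-like receptor Tlr7 (96.63 CPM, the others 125.9 to 142.7) and for Reps2 (33.65 CPM, the others 46.33 to 52.03). The same library was high for Zbtb46, at 3.138 CPM against 0.7332 to 1.61 CPM. Library G was high for the squalene synthase gene Fdft1, at 27.32 CPM against 7.985 to 9.357 CPM, and low for mt-Co1, at 293.3 CPM against 334.3 to 347.1 CPM. Library K was low for Dhcr7, at 49.36 CPM against 70.58 to 76.28 CPM, and held 1.092 CPM of the neutrophil gene Ngp, which was at most 0.02716 CPM in the other macrophage libraries.

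Monocyte library 10 held 7332.7 CPM of Psap, against 2854.2 to 3761.0 CPM in the others. Library 11 was high for Tnf (14.14 CPM, the others 4.358 to 7.15), Tlr4 (34.32 CPM, the others 28.14 to 29.78) and the glutathione transferase gene Gsta3 (6.932 CPM, the others 1.781 to 2.82). Library 8 was high for Pltp, at 215.9 CPM against 116.6 to 143.3 CPM, and low for Msn, moesin, at 1458.1 CPM against 1631.5 to 1687.9 CPM.

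The cell-type contrast with ox-LDL minus that with vehicle passed the interaction test for genes described above. On the log2 scale the difference was -1.45 for Idi1, -1.188 for Msmo1, -1.398 for Sqle, -1.163 for Insig1, -1.077 for Cyp51, -2.222 for Rn7sk, -2.117 for Gm24447 and 1.212 for Zfp217.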

How the results depend on the processing

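For 180 named genes under 20 alternative settings each, 3525 of 3600 values kept their direction and side of the threshold, 75 changed side and 0 reversed. Against a 2-fold change, calls fell to 4180, with 1572 higher and 2608 lower. Leaving out 1 library gave 9775 to 10419 calls, with 4467 to 4820 higher and 5300 to 5689 lower. DESeq2 gave 10491, limma voom 10454, and the fit without libraries 10 and 11 gave 10665. With total counts as the scaling, 4230 genes were called higher and 6025 lower, and the median log2 fold change was -0.163. The balance of higher and lower calls thus depends on the scaling. The difference between contrasts depended most on the setting: 11 calls became 62 with DESeq2, 129 without monocyte libraries 5, 6, 10 and 11, 5 with total counts as the scaling, and 1 to 44 when 1 library was left out. The cause was not tested. With no filter on low counts the median log2 fold change of all genes tested was -0.274. For marker sums, leaving out 1 library moved the log2 ratio of conventional dendritic cells between -0.639 and -0.474, of endothelial cells between -0.446 and -0.27, and of plasmacytoid dendritic cells between 0.155 and 0.371. The first pair lost their calls in some of these (adjusted p up to 0.0603 and 0.102, exact permutation), and the last passed without monocyte library 7 (adjusted p = 0.0121). No paired analysis was possible because the groups share no replicate names. Folds against the floor without single monocyte libraries were computed after seeing the data. Limits are the unknown source of each library, other leukocyte RNA in the monocyte libraries, and low counts near the floor.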

Other observations

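Macrophage libraries varied among themselves for a set of matrix and adhesion genes, picked here because they varied most. F13a1, a coagulation factor chain made by macrophages, stood at 180, 208, 11.8, 9.01, 339 and 190 CPM in libraries G to L. Mmp14, a membrane matrix protease, was at 253, 244, 20.7, 18.9, 274 and 158 CPM, and Thbs1, thrombospondin, at 1256, 1141, 257, 195, 1054 and 623 CPM. Libraries I and J were thus the lowest for all 3 genes. Vcam1, an adhesion molecule of tissue macrophages, was highest in I and J instead, at 231, 248, 796, 826, 92.8 and 414 CPM. Of the variance among the macrophage libraries 56.4% lay on a component with G, H and K on one side and I and J on the other. None of these 4 genes differed between the cell types at the threshold, with adjusted p from 0.0599 (Thbs1) to 0.641 (Vcam1), though Thbs1 passed under 6 alternative settings. The labels give no batch for these libraries.

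Other gene groups held called genes in both directions. Of 29 integrins, selectins and adhesion molecules, 12 were called higher in macrophages and 12 lower. Itga6, an integrin chain for laminin, rose from 25.1 ± 11.5 to 303 ± 64.9 CPM (3.56 ± 0.28, adjusted p = 1.59e-07). Selplg, the P-selectin ligand, was lower by -2.55 ± 0.15. Of 23 immediate-early genes 14 were lower and 4 higher, with Dusp5, a phosphatase that ERK signalling induces, at 1398 ± 194 CPM in monocytes and 11.9 ± 3.37 CPM in macrophages. Of 18 complement genes 11 were higher and 3 lower, of 17 chemokine receptors 3 were higher and 12 lower, and of 40 cell-cycle genes 6 were higher and 15 lower, fewer in all than the 65.4% called over all genes. Mmp9, a gelatinase stored by neutrophils, stood at 1550 ± 1486 CPM in monocytes and 1.63 ± 1.11 CPM in macrophages. Mmp9 is itself on the neutrophil marker list, which was also lower, and the part of neutrophils was not tested.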
